A study of Mus musculus with 6 samples.

Results

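The 36 genes described here are among the longest of the mouse genome, and most have their main known roles in neurons. They were taken as a fixed list of very long neuronal and disease-linked genes, by symbol and not by any measured value. A gene entered where a row of the array table named it and no other gene. That held for 34 of the 36 genes, in 49 of the 28856 rows. Magi2, a synaptic scaffold gene, and Immp2l, a mitochondrial peptidase gene, had no such row, so their expression was not analysed here. Of the 34, 33 had a genomic span over 500 kb and 24 a span over 1000 kb in the RefSeq table of GRCm38.p6. The exception was Tcf4, which lay between 200 and 500 kb.

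The RNA was that of the whole mouse brain, olfactory bulb to brain stem, at embryonic day 16.5 (E16.5). The 2 groups were 3 Tdp2Δ1-3 brains, which lack exons 1 to 3 of Tdp2, and 3 wild-type brains, with 1 Affymetrix Mouse Gene 1.0 ST array per brain. The labels give no strain, sex or litter, and name no treatment. The series text describes 3 independent pairs of brains, without saying which animals formed a pair. The deletion was not described as limited to a cell type.

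Very long genes take a long time to transcribe over their whole length, and the polymerase twists the DNA as it moves. Topoisomerases cut and reseal DNA to release that strain, and drugs that block topoisomerases are known to lower transcripts of long genes in cultured neurons. Tdp2 encodes the phosphodiesterase that frees DNA ends from trapped topoisomerase II. Many of the genes described here encode adhesion molecules, scaffolds and channel partners of synapses, and several are linked to autism in people or lie at sites where chromosomes break under replication stress.

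Promoter sequences were read for the members whose transcript changes are described first. The RefSeq promoter table (build GRCm38.p6) held 26 of the 36 genes, 14 with 1 start, 9 with 2 starts and 3 with 3 starts. The 250 bases before the most upstream start in that table are printed for Dlg2, Lingo2, Nrg3 and Fgf14. These members had the lowest adjusted p among those in the table. The printed sequences lay at chr7:91090536-91090785 (plus strand), chr4:36718964-36719213 (minus strand), chr14:39473089-39473338 (minus strand) and chr14:124192547-124192796 (minus strand). Exoc4 (chr6:33248878-33249127, plus strand) is printed beside them as the member in the table whose value differed least. Capitals mark CAGNTG on either strand (CANCTG on the other), an E-box of the kind bound by basic helix-loop-helix factors such as the product of Tcf4, itself a member.
Dlg2: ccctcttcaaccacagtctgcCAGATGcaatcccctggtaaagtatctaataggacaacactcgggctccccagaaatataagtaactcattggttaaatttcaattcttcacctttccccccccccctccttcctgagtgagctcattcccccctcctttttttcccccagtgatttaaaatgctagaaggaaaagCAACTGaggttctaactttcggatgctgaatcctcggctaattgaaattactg
Lingo2: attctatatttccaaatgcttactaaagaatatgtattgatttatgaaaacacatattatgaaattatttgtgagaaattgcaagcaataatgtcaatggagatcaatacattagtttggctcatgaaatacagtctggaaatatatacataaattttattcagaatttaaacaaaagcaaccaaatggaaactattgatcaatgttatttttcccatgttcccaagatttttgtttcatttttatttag
Nrg3: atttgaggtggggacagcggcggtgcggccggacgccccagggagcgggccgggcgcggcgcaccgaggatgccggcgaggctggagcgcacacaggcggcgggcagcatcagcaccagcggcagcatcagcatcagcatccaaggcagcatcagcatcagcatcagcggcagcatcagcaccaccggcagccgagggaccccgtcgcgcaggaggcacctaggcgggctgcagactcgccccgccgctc
Fgf14: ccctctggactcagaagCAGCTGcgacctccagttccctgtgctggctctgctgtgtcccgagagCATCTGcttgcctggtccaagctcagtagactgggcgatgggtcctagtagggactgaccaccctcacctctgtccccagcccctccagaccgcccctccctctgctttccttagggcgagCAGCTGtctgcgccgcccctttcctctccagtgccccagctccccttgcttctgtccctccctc
Exoc4: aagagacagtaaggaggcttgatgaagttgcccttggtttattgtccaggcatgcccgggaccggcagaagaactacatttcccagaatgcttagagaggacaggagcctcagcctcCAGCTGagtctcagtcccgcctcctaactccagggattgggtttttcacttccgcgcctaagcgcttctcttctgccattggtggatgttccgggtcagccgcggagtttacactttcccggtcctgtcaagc

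CAGNTG occurred 2 times in the Dlg2 sequence, 3 times in Fgf14, 1 time in Exoc4 and 0 times in Lingo2 and Nrg3. The Nrg3 sequence held 27 CG dinucleotides, Exoc4 10, Fgf14 7, Dlg2 3 and Lingo2 0. Over the full 300-base windows, 250 bases before to 50 after each start, 23 of 41 member promoters held CAGNTG (56.1%), against 51.4% of all 32851 promoters. The share with GGGCGG was 39.0% against 35.7%, with CCAAT 39.0% against 37.4% and with TATAAA 14.6% against 13.6%, each searched on both strands. The windows held 0 to 54 CG dinucleotides, with a median of 12 against 7 over all promoters. The median was 6.5 in the 14 promoters of members called lower (as given below) and 15 in the 24 of measured members not called. The rest belong to members without an array row. Of those 14 promoters 9 held CAGNTG, 3 GGGCGG, 6 CCAAT and 2 TATAAA. CG content thus ranged widely among members, and these counts describe letters only. Whether the listed starts are those used in the embryonic brain was not tested.

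Each array value was a log2 expression value from which the row's median over the 6 arrays had been taken away. A value of 0 is the middle of the 6 arrays for that gene, and levels cannot be compared between genes or read as detected or absent. Where the groups do not overlap, this centring makes the highest mutant and the lowest wild-type value mirror each other. Tdp2 itself had centred log2 values of -1.05, -0.90 and -0.94 in the mutants, against 0.90, 1.10 and 1.34 in the wild types, so the arrays bore out their labels. Mutant replicate 3 stood apart in sex-linked genes: Xist was at 6.27 and the Y-linked genes Kdm5d, Uty and Eif2s3y were at -2.84, -3.30 and -4.32. In the other 5 arrays Xist lay between -0.085 and 1.17 and these Y-linked genes between -0.067 and 0.20. The counts of members, span classes, related genes and cell type markers are given below with and without that array.

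In the mutant brains 14 of the 34 genes were lower and none was higher (limma adjusted p under 0.05 over 23410 rows). That is 41.2% of the members, against 4.13% of all rows called lower and 2.34% called higher, 6.47% in all. Differences below 0 were found in 30 of the 34, against 43.2% of all rows. The median difference, mutant minus wild type, was -0.23 on the log2 scale over the members and 0.013 over all rows. All 3 mutants lay below all 3 wild types in 21 members (61.8%), against 12.6% of all rows, and above them in 1 member, against 13.1% of all rows. The differences were small, from -0.58 to 0.091, with standard errors between 0.042 and 0.11. At the fold limit of 1.5 that the series text sets, none of the 34 passed, against 0.641% of all rows. Dpp10 at -0.58 and Dlg2 at -0.57 came nearest to that limit, which is 0.585 on the log2 scale.

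The count rested on single arrays, and the direction did not turn for any called gene. It was 7 without mutant replicate 3, the array that stood apart in sex-linked genes, and 2 without mutant replicate 2 or wild-type replicate 2. It was 5 without wild-type replicate 1 and 14 without mutant replicate 1 or wild-type replicate 3. The share of all rows called lower, 4.13% with all arrays, also moved. For the mutants, leaving out replicate 1, 2 or 3 gave 7%, 0.483% or 1.7%. For the wild types the same step gave 1.95%, 0.927% or 3.15%. The share thus rose only when mutant replicate 1 was left out. The fits with 14 members called had shares of 7% and 3.15%. The members' median stayed between -0.29 and -0.20 in these 6 fits. Dlg2 and Lingo2 were called in all 6 of these fits.

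**Figure D1:**
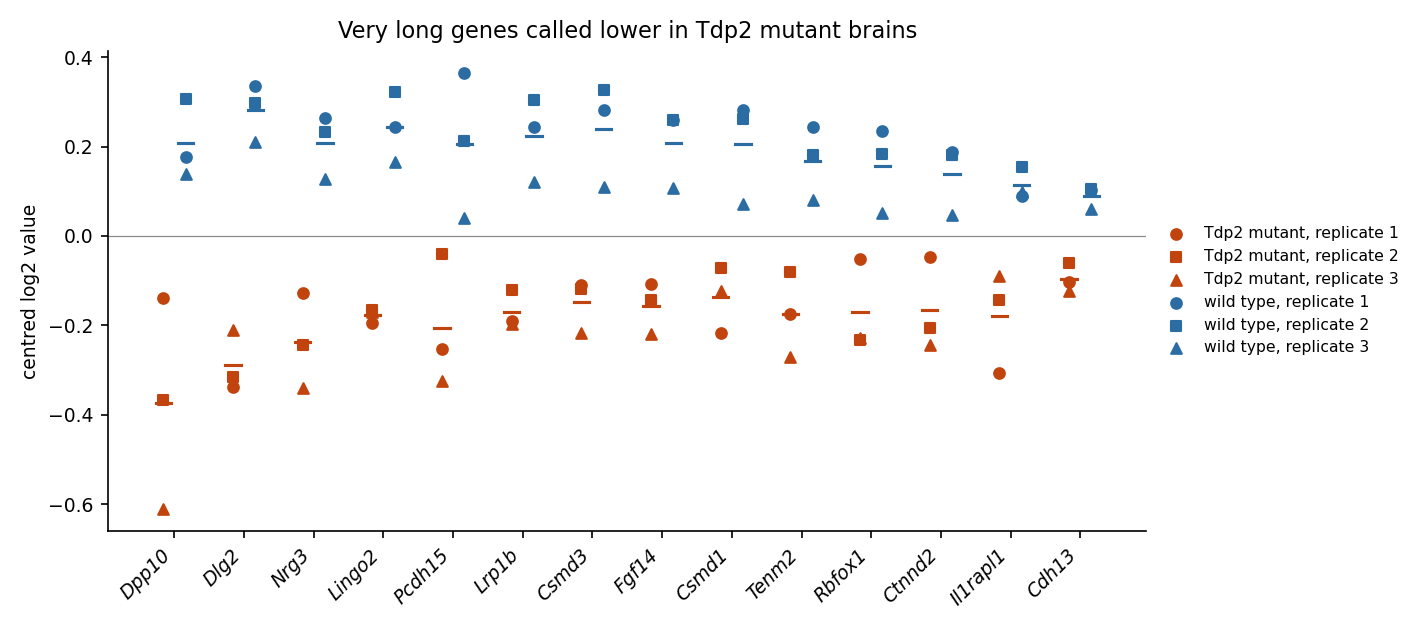
Centred log2 value (vertical axis) of the 14 members called lower, with the 3 Tdp2 mutant brains left of the 3 wild-type brains for each gene, a marker shape per replicate number and a short line at each group's mean. Every mutant point lies below 0 and every wild-type point above it, and Dpp10 has the widest mutant spread, from -0.61 to -0.14.

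The member with the lowest adjusted p was a scaffold gene of the synapse. Dlg2 encodes PSD-93, a scaffold that holds glutamate receptors and potassium channels at synapses. Its values were -0.34, -0.31 and -0.21 in the mutants and 0.34, 0.30 and 0.21 in the wild types. The groups were far apart compared with their spread, and Dlg2 fell by 0.57 ± 0.05 (SE, n = 3 per genotype, limma adjusted p = 0.0041). Ctnnd2, which encodes the neuronal delta-catenin of adherens junctions and dendrites, had -0.048, -0.21 and -0.24 in the mutants and 0.19, 0.18 and 0.048 in the wild types. Ctnnd2 fell by 0.31 ± 0.07 (adjusted p = 0.035), with mutant replicate 1 close to wild-type replicate 3. Dmd, the dystrophin gene on the X chromosome, had a difference of -0.17 (95% interval -0.33 to -0.012, adjusted p = 0.20), and -0.19 without mutant replicate 3. Ctnna2, the neuronal alpha-catenin gene, was at -0.057 (-0.16 to 0.043) and the exocyst gene Exoc4 at -0.013 (-0.16 to 0.13). Pard3, a polarity gene, had the 1 non-overlapping difference above 0, at 0.087 (-0.011 to 0.19, adjusted p = 0.29).

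Among the 11 adhesion genes 5 fell and the other 6 had values below 0 that did not pass. Lingo2 encodes a leucine-rich repeat and immunoglobulin protein of the neuronal membrane. It had -0.19, -0.17 and -0.17 in the mutants and 0.24, 0.32 and 0.17 in the wild types. The 3 mutants were almost equal, and Lingo2 fell by 0.42 ± 0.05 (SE, adjusted p = 0.0069). Tenm2 encodes a teneurin, a trans-synaptic partner of latrophilins, and had -0.17, -0.080 and -0.27 in the mutants and 0.24, 0.18 and 0.080 in the wild types. Tenm2 fell by 0.34 ± 0.06 (adjusted p = 0.023). Pcdh15, a protocadherin gene known for its role in inner-ear hair cells, had -0.25, -0.039 and -0.33 in the mutants and 0.37, 0.21 and 0.039 in the wild types. Its fall of 0.41 ± 0.10 passed narrowly (adjusted p = 0.049), and mutant replicate 2 and wild-type replicate 3 nearly met. Cdh13, the gene of a cadherin anchored to the membrane by a lipid, showed the smallest fall that passed. Its values were -0.10, -0.061 and -0.12 in the mutants and 0.10, 0.11 and 0.061 in the wild types, a fall of 0.19 ± 0.04 (adjusted p = 0.041). Cdh13 was called in none of the 6 fits that left out an array, and Pcdh15 in 1.

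Il1rapl1 and Ptprd encode proteins that bind each other across the synapse, Ptprd from the presynaptic side. Il1rapl1, on the X chromosome, had -0.31, -0.14 and -0.089 in the mutants and 0.089, 0.15 and 0.098 in the wild types. It fell by 0.29 ± 0.06 (SE, n = 3 per genotype, limma adjusted p = 0.033), and by 0.34 without mutant replicate 3 (adjusted p = 0.047). Ptprd had -0.13, -0.032 and -0.047 in the mutants and 0.24, 0.20 and 0.032 in the wild types, a difference of -0.23 ± 0.06 that did not pass (adjusted p = 0.077). Nlgn1 and Nrxn3 belong to the neuroligins and neurexins, another pair of families that meet across the synapse. Nlgn1 had -0.15, -0.018 and -0.14 in the mutants and 0.018, 0.23 and 0.11 in the wild types, a difference of -0.22 ± 0.07 (adjusted p = 0.087). Nrxn3 was at -0.14 (95% interval -0.33 to 0.045), with overlapping groups. In all of these but Nrxn3 the groups did not overlap.

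The last 3 adhesion genes did not pass. Pcdh9, a delta-protocadherin gene, had -0.0083, -0.043 and -0.10 in the mutants and 0.19, 0.30 and 0.0083 in the wild types. The difference of -0.22 ± 0.07 (SE) did not pass (adjusted p = 0.13), and wild-type replicate 3 lay at the mutants' level. Astn2, a gene of neuron migration along glia, had 0.047, -0.047 and -0.31 in the mutants and 0.25, 0.27 and -0.058 in the wild types. Its groups overlapped, with a difference of -0.26 ± 0.11 (adjusted p = 0.24). Sdk1, an immunoglobulin adhesion gene studied in retinal synapses, was at -0.17 (95% interval -0.35 to 0.0056, adjusted p = 0.25).

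All 3 genes of large receptor-like proteins fell, by similar amounts. Lrp1b encodes a large receptor of the LDL receptor family. It had -0.19, -0.12 and -0.20 in the mutants and 0.24, 0.30 and 0.12 in the wild types, a fall of 0.39 ± 0.06 (SE, n = 3 per genotype, limma adjusted p = 0.011). Csmd1 and Csmd3 encode membrane proteins with many CUB and sushi domains. Csmd3 had -0.11, -0.12 and -0.22 in the mutants and 0.28, 0.33 and 0.11 in the wild types, and fell by 0.39 ± 0.07 (adjusted p = 0.016). Csmd1 had -0.22, -0.072 and -0.12 in the mutants and 0.28, 0.26 and 0.072 in the wild types, and fell by 0.34 ± 0.07 (adjusted p = 0.028). In each of the 3 genes wild-type replicate 3 was the lowest wild type.

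Genes of ion channel auxiliary proteins had some of the largest differences and the widest mutant spread. Dpp6, Dpp10 and Kcnip4 encode partners of Kv4 potassium channels, which carry the fast transient current of dendrites. Dpp10 had -0.14, -0.37 and -0.61 in the mutants and 0.18, 0.31 and 0.14 in the wild types. It fell by 0.58 ± 0.11 (SE, n = 3 per genotype, limma adjusted p = 0.024), and by 0.34 after cyclic loess normalization. Dpp6 had -0.074, -0.18 and -0.39 in the mutants and 0.21, 0.074 and 0.089 in the wild types, a difference of -0.34 ± 0.08 just outside the limit (adjusted p = 0.051). Kcnip4 had -0.041, -0.34 and -0.55 in the mutants and 0.041, 0.042 and 0.13 in the wild types. Its difference of -0.38 ± 0.11 did not pass (adjusted p = 0.090) and was 0.039 after cyclic loess, the 1 member whose sign that scaling turned. In Dpp6, Dpp10 and Kcnip4 mutant replicate 1 was closest to the wild types and mutant replicate 3 farthest. Kcnd2, the Kv4.2 channel gene that these proteins serve and itself over 500 kb, fell by 0.62 ± 0.09 (adjusted p = 0.011). Fgf14, an intracellular fibroblast growth factor homologue that binds sodium channels, had -0.11, -0.14 and -0.22 in the mutants and 0.26, 0.26 and 0.11 in the wild types. Fgf14 fell by 0.37 ± 0.06 (adjusted p = 0.013), and its paralog Fgf12 fell by 0.63 ± 0.06 (adjusted p = 0.0038).

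In the neuregulin pathway 1 of the 2 ligands fell. Nrg3, a neuregulin expressed mainly in the nervous system, had -0.13, -0.24 and -0.34 in the mutants and 0.27, 0.23 and 0.13 in the wild types. Nrg3 fell by 0.45 ± 0.07 (SE, n = 3 per genotype, limma adjusted p = 0.011). Nrg1, the ligand with the broader expression, was at 0.057 (95% interval -0.077 to 0.19) with overlapping groups. Erbb4, the receptor of both ligands in neurons, was at -0.14 (-0.27 to 0.0007, adjusted p = 0.23). The intervals of Nrg3 (-0.60 to -0.30) and Nrg1 did not overlap, and the difference between the genes was not tested.

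Of the 3 nuclear and RNA regulators 1 fell. Rbfox1, a neuronal splicing factor gene, had -0.051, -0.23 and -0.23 in the mutants and 0.23, 0.18 and 0.051 in the wild types, and fell by 0.33 ± 0.07 (SE, limma adjusted p = 0.033). Auts2, a chromatin and cytoskeleton regulator gene linked to autism, was at 0.091 (95% interval -0.026 to 0.21). Tcf4, the gene of a basic helix-loop-helix factor mutated in Pitt-Hopkins syndrome, was at -0.036 (-0.15 to 0.074). Neither glypican gene passed, with Gpc6 at -0.058 (-0.19 to 0.078) and Gpc5 at -0.029 (-0.19 to 0.13). The 2 measured enzyme genes known from fragile sites or recurrent deletions were Wwox, an oxidoreductase gene, at 0.050 (-0.071 to 0.17), and Macrod2, an ADP-ribose hydrolase gene, at -0.15 (-0.32 to 0.011). None of these 6 passed, and each interval leaves room for a small change either way.

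**Figure D2:**
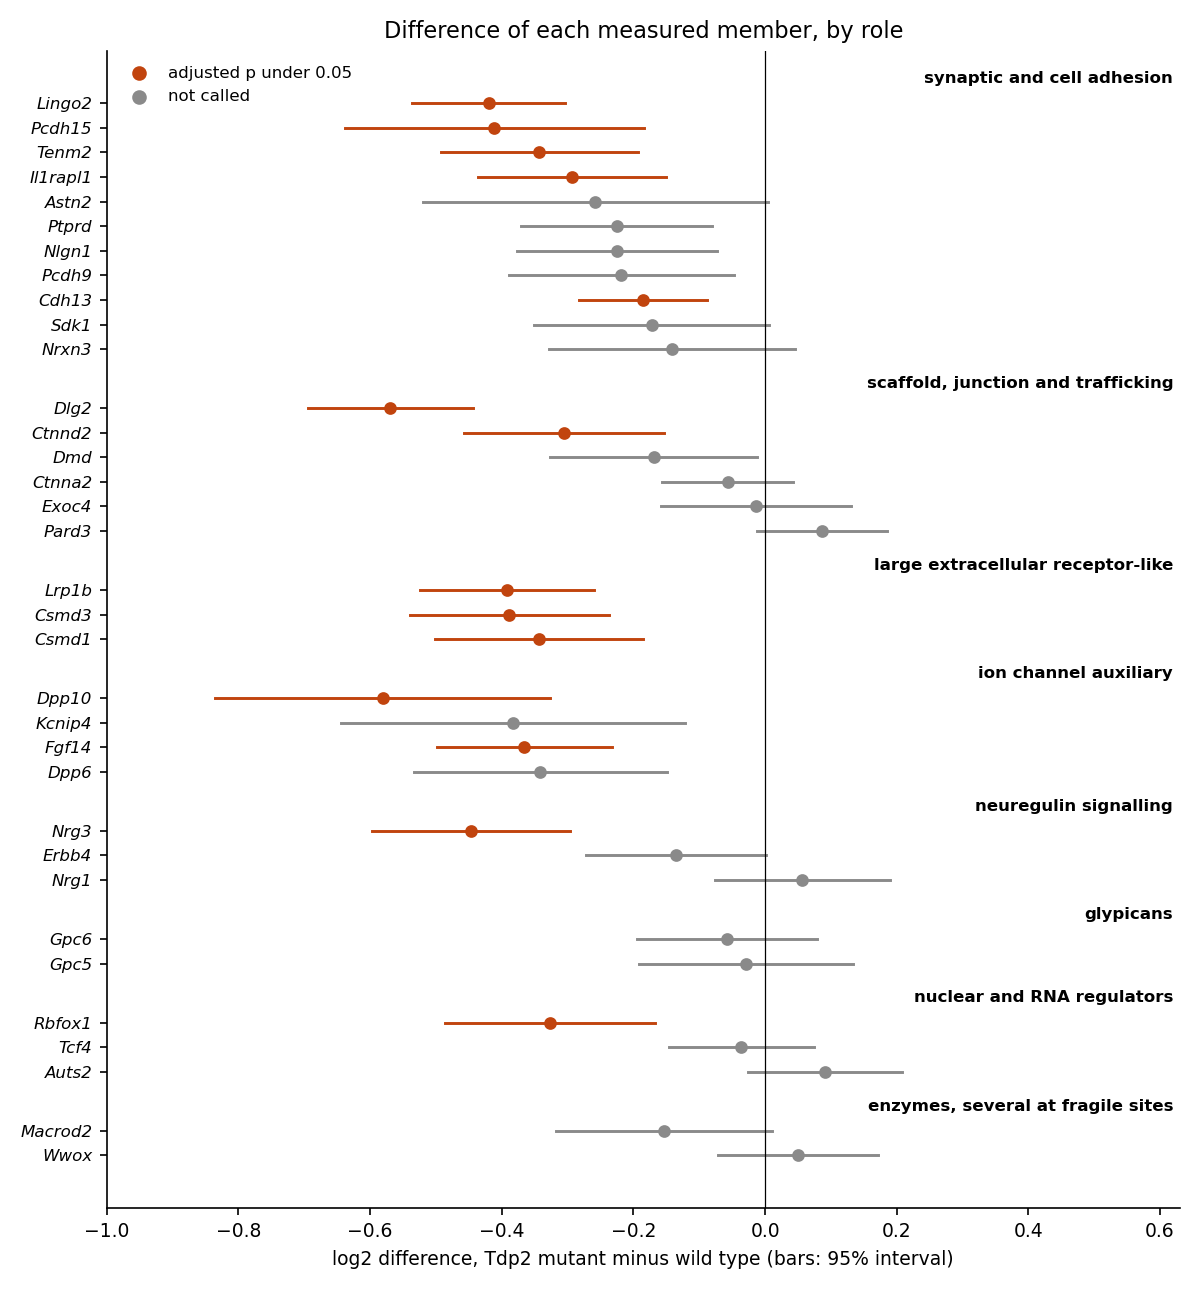
Log2 difference, Tdp2 mutant minus wild type (horizontal axis), of the 34 measured genes grouped by role, with 95% intervals from limma. Called genes are all 3 of the receptor-like group, 5 of 11 adhesion genes and 2 of 4 channel genes, against 14 of all 34. Both glypicans, Wwox, Nrg1, Pard3, Exoc4 and Tcf4 lie close to 0.

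Among the wild types the same array was lowest in most of the 34 genes. Wild-type replicate 3 was the lowest wild type in 26 of the 34, and in 13 of the 14 called genes. Mutant replicate 2 was the lowest mutant in 2 of the 34, while mutant replicates 1 and 3 were the lowest in 16 each, so the mutants had no common order. The median over members was -0.10, -0.045 and -0.12 in mutant replicates 1, 2 and 3, against 0.17, 0.18 and 0.036 in wild-type replicates 1, 2 and 3. The medians over all rows lay between -0.0097 and 0.012 in the 6 arrays. The gap between mutant replicate 2 and wild-type replicate 3 was thus the narrowest between the groups. Across the 34 genes the median SD within a group was 0.069 in mutants and 0.087 in wild types.

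Several rows of the array stood for 6 of the genes, and within each gene all rows had differences below 0. Csmd3 had 7 rows, from -0.44 to -0.24, of which 3 were called lower. Both rows of Lingo2 were called, at -0.42 and -0.33. Macrod2 had 6 rows between -0.20 and -0.089 and Pcdh9 had 2 rows at -0.23 and -0.22, none of them called. The rows of Pcdh15 differed more, with the called row at -0.41 (95% interval -0.64 to -0.18) and the other, which the annotation ties to cDNA clones alone, at -0.082 (-0.20 to 0.035). Dpp6 had rows at -0.34 and -0.14. Over all 49 rows 17 were lower and none was higher.

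**Figure D3:**
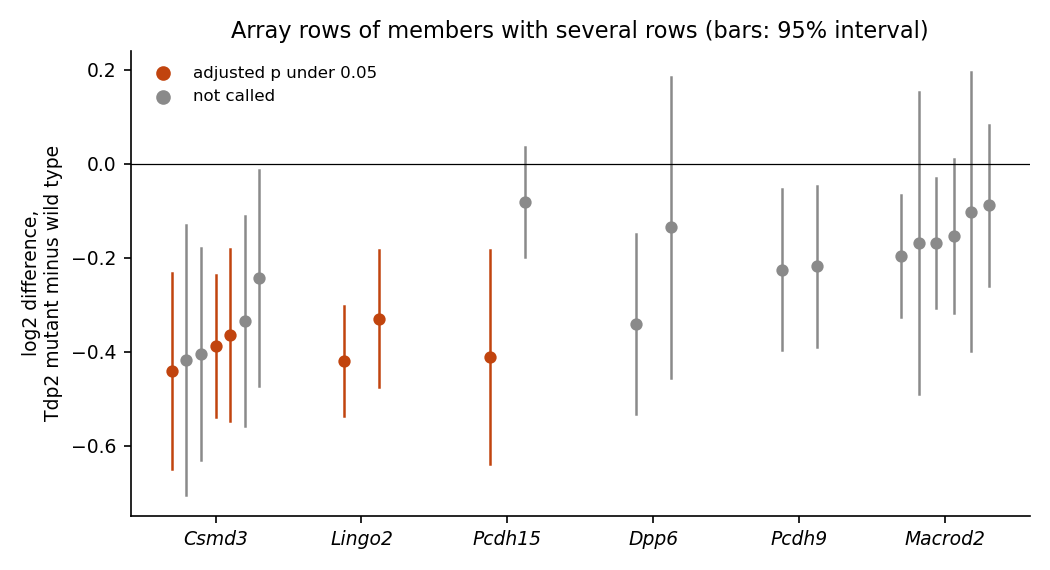
Log2 difference, Tdp2 mutant minus wild type (vertical axis), of each array row of the 6 genes with more than 1 row, with 95% intervals. All 21 points lie below 0. Those of Csmd3 range from -0.44 to -0.24 and those of Macrod2 from -0.20 to -0.089, with intervals that overlap between the genes. The difference between these genes was not tested.

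Taken as 1 class, other genes over 500 kb gave almost the same shares as the members. Outside the members, 179 genes had a span over 500 kb, of which 72 were lower (40.2%) and 4 higher (2.23%), with a median difference of -0.20. The largest falls among them were in the potassium channel gene Kcnq5 (-0.77), the GABA-A receptor gene Gabrg3 (-0.76), the glutamate receptor gene Grm5 (-0.73) and Fgf12 (-0.63). The 4 that rose were Adgrv1 by 0.52, the transcription factor gene Sox5 by 0.39, the netrin receptor gene Dcc by 0.31 and Nfia by 0.31. The share called lower was 2.82% of 17559 genes up to 100 kb, 10.9% of 1355 genes from 100 to 200 kb and 20.0% of 726 further genes from 200 to 500 kb. The share called higher was 2.34%, 1.99% and 1.52% in the same classes. The median differences of these classes were 0.016, -0.036 and -0.083. Over 1000 kb the shares called lower were 50% of 24 members (median difference -0.28) and 33.3% of 30 other genes (median -0.13). The difference between members and other genes was not tested over 500 kb or over 1000 kb. With an array left out, the share of the 179 called lower was 10.1% (mutant replicate 2), 21.8% (mutant replicate 3), 22.9% (wild-type replicate 1) or 12.8% (wild-type replicate 2). It was 35.2% without wild-type replicate 3 and 44.1% without mutant replicate 1. None of the 179 was called higher in 5 of these 6 fits, and 8 were when mutant replicate 1 was left out. The shorter classes lost calls too: with mutant replicate 3 left out 1.06% of genes up to 100 kb, 4.28% from 100 to 200 kb and 8.95% from 200 to 500 kb were called lower, and with mutant replicate 2 left out 0.251%, 1.18% and 2.48%. With wild-type replicate 2 left out these shares were 0.609%, 2.21% and 4.82%, and they kept the same order of classes. Without mutant replicate 1 they were higher, at 5.9%, 15.4% and 24.8%.

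**Figure D4:**
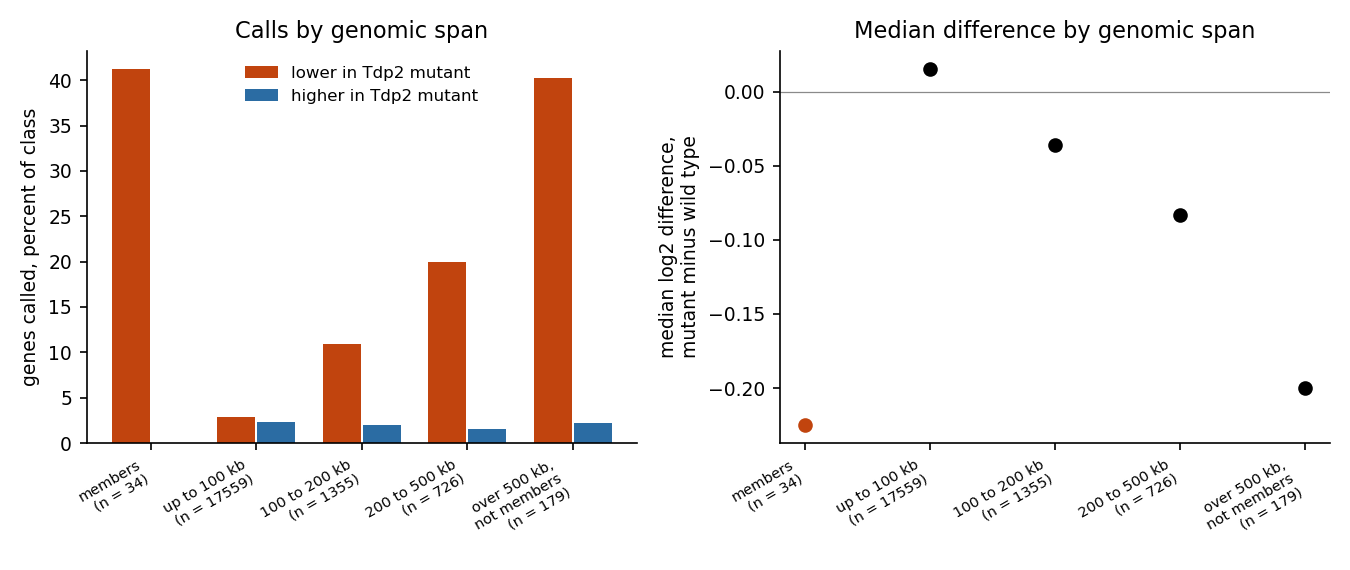
Left, percent of genes called lower or higher in Tdp2 mutants (vertical axis) among the 34 members and in 4 classes of genomic span without them; right, the median log2 difference, mutant minus wild type, of the same classes. Members (41.2%) and other genes over 500 kb (40.2%) have like shares called lower, against 2.82% of genes up to 100 kb.

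Relatives and partners of the members included genes that fell and a few that rose. Of 56 measured paralogs 9 fell and 3 rose, with a median of -0.093. The largest falls were in Fgf12 (-0.63), Pcdh11x (-0.60), the potassium channel partner Kcnip2 (-0.56) and the growth factor receptor gene Egfr (-0.56). The rises were in the glypican gene Gpc4 (0.43), the alpha-catenin gene Ctnna1 (0.29) and Tcf12 (0.27), relatives of Gpc5 and Gpc6, Ctnna2 and Tcf4. Paralogs over 500 kb were lower in 4 of 11 and the others in 5 of 45 (11.1%). Of 38 measured protein partners 12 fell and none rose, with a median of -0.19 (-0.12 after cyclic loess). They included Kcnd2 (-0.62), the postsynaptic scaffold gene Dlgap1 (-0.60), the dystrobrevin gene Dtna (-0.44) and the NMDA receptor gene Grin2b (-0.41). These partners fell in 3 of 3 genes over 500 kb and in 9 of 35 (25.7%) up to 500 kb. With an array left out, the partners called lower numbered 2 (mutant replicate 2 or wild-type replicate 2), 5 (mutant replicate 3) or 7 (wild-type replicate 1). They numbered 10 without wild-type replicate 3 and 16 without mutant replicate 1. The paralogs called lower numbered 16 (mutant replicate 1 left out), 3 (mutant replicate 2), 6 (mutant replicate 3) or 4 (wild-type replicate 2), and those called higher 1 (mutant replicate 3) or 0 (mutant replicate 2 or wild-type replicate 2). Some genes, such as Fgf12, Kcnd2 and Grin2b, stand in more than 1 list.

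Of the 8 topoisomerase and Tdp genes measured, Tdp2 fell and Top2a rose. Top2a, topoisomerase II of dividing cells, had 0.20, 0.44 and 0.53 in the mutants and -0.51, -0.27 and -0.20 in the wild types, and rose by 0.72 ± 0.10 (SE, n = 3 per genotype, limma adjusted p = 0.011). Top2b, the form of postmitotic neurons, was at 0.13 ± 0.07 (adjusted p = 0.30). Top1 was at 0.37 ± 0.09, just outside the limit (adjusted p = 0.052).

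Markers of cell types moved in the same arrays. Of 19 measured markers of postmitotic and maturing neurons 10 fell and none rose (median -0.39, or -0.24 after cyclic loess), with Thy1 at -0.91 and Nrgn at -0.68. Neuron markers with a span up to 100 kb fell in 6 of 12 (median -0.46), and those over 100 kb in 4 of 7 (median -0.38). All 19 markers of cycling cells rose (median 0.56), with Bub1 at 0.78 and Kif11 at 0.74. Their median was 0.19, 0.33 and 0.35 in mutant replicates 1, 2 and 3 and -0.39, -0.19 and -0.21 in wild-type replicates 1, 2 and 3. The neuron markers' median was -0.074, -0.23 and -0.34 in those mutants and 0.21, 0.15 and 0.11 in those wild types. Intermediate progenitor markers rose in 6 of 10 (Neurog2 0.75, Gadd45g 0.63) and radial glia markers in 4 of 12, and none of either list fell. In other fits 1 radial glia marker was called lower after cyclic loess or with the replicate block, and 2 were with array weights. Astrocyte markers fell in 5 of 10, with Slc4a4 at -0.80 and Sparcl1 at -0.65, and oligodendrocyte lineage markers in 2 of 9. Markers of endothelial cells and pericytes, taken as 1 list, fell in 2 of 10, and those of meninges and choroid plexus in 2 of 10. Red-cell markers rose in 2 of 8, the embryonic globin genes Hba-x by 1.44 and Hbb-y by 3.79. Microglia markers gave 0 calls in 9. Called neuron markers numbered 1 without mutant replicate 2, 4 without wild-type replicate 2 and 6 without wild-type replicate 1, and called cycling markers 2 without mutant replicate 2. Called neuron and cycling markers numbered 14 and 19 without mutant replicate 1, and 8 and 19 without wild-type replicate 3. With mutant replicate 3 left out, 7 neuron, 16 cycling, 5 intermediate progenitor and 2 radial glia markers were called. That fit also called 1 marker each of astrocytes, the oligodendrocyte lineage and meninges, and 0 of endothelial cells and pericytes. Without mutant replicate 2 the astrocyte, oligodendrocyte, endothelial and pericyte, and meningeal lists had 0 calls, intermediate progenitors 2 and radial glia 1. The red-cell count was 2 in each of these fits. In whole-brain RNA fewer cells of a type and less RNA per cell cannot be told apart. The part of these shifts in the values of the very long genes was not tested.

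**Figure D5:**
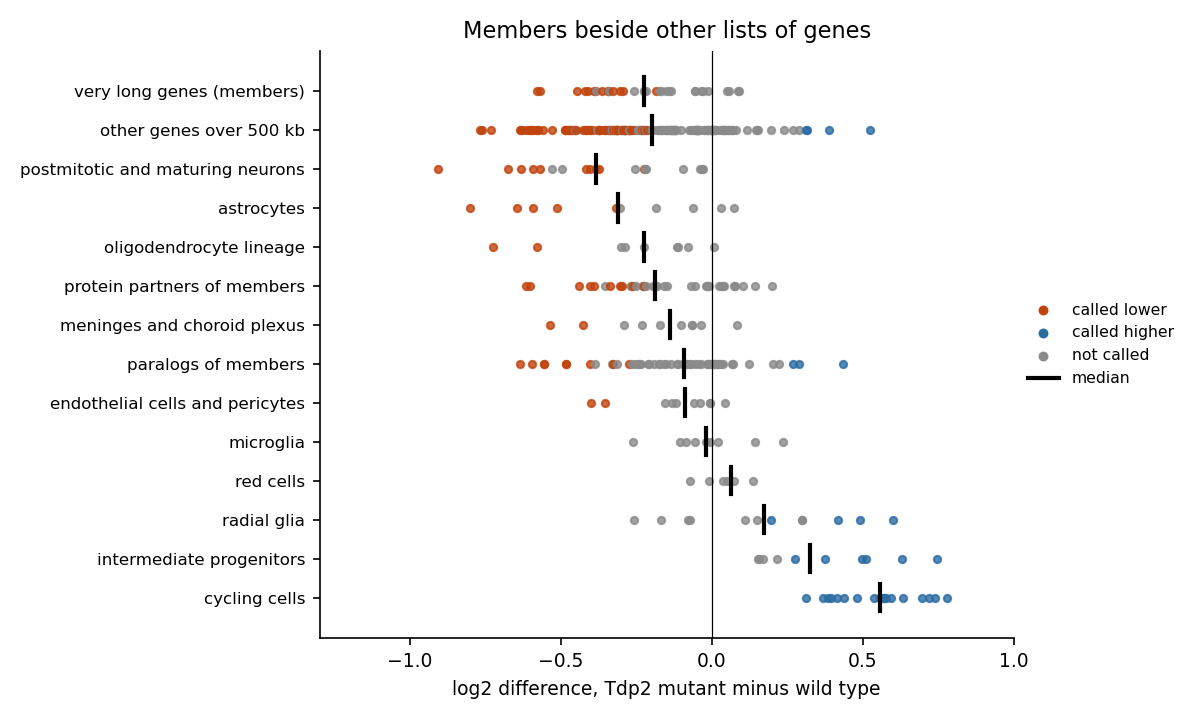
Log2 difference, Tdp2 mutant minus wild type (horizontal axis), of each gene (point) and the median (bar) of the 34 members, of other genes over 500 kb and of the lists of partners, paralogs and cell type markers. The members' median is -0.23, that of neuron markers -0.39 and that of other genes over 500 kb -0.20, an order that turns after cyclic loess (members -0.25, neuron markers -0.24), and cycling-cell markers lie at the other end (0.56). The red-cell genes Hba-x (1.44) and Hbb-y (3.79) lie outside the axis.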

How the data were processed

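Transcripts of 6 E16.5 mouse brains, 1 array each, were measured on the Affymetrix Mouse Gene 1.0 ST platform. The authors deposited log2 values normalized by Robust Multi-Array Average, as the series text states. Affymetrix Expression Console is the software listed, per the submitters' processing notes. The deposited table states no log base. Each row had been centred: its median was 0, within 5e-07, and no source used here describes this step. No filter on low values was possible. The array annotation's build is not given in the sources used here.

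Of 28856 rows, 21789 named 1 gene, 1621 several and 5446 none. Symbols were updated by gene identifier through RefSeq (GRCm38.p6), which also gave the span class of 99.6% of 19938 genes. A gene was represented by its row with most accessions. Rows naming a gene (23410) were tested with limma 3.58.1 in R 4.3.3 (lmFit, eBayes, two-sided, Benjamini-Hochberg). A call is an adjusted p under 0.05. Errors are limma's moderated SEs and 95% intervals.

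The members and lists were chosen with earlier results of these data known, so no test over a list was made. All members are named. The value on every array is given for called members and for the 6 uncalled ones with the largest difference, and other genes were named by the size of their called differences. Replicate numbers were checked for pairing: deviations of same-numbered brains correlated at 0.21, 0.047 and 0.20 for replicates 1, 2 and 3. Differently numbered brains correlated between -0.22 and 0.057, so the values for replicates 1 and 3 were the highest of all. These values do not settle whether the numbers mark pairs. The labels do not state it, and the main fit used no pairs. In simulated data for the mutant and wild-type comparison (10 rounds, 23410 rows, 200 changed) the fit recovered 99.9% of 1.5-fold changes, with 3.7% false calls. The simulated noise was independent between genes and arrays, and no smaller change was simulated. Recovery of changes as small as those of the members was thus not tested. Alternatives were each array left out, the replicate block, equal array medians, cyclic loess, array weights, all rows, 1 row per gene, a robust variance prior, a 1.5-fold limit and other span limits. Their use on the span classes and lists was added after the data were seen. The labels call the samples biological replicates. Only 3 arrays per genotype limit the precision. Figures were drawn with matplotlib 3.10.9.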

Additional observations from a re-analysis of the deposited data

How the results depend on the processing

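The members' median stayed below 0 in every fit, while the count of members called varied widely. With 1 array left out, the members called lower numbered 2 to 14, all rows called 145 to 2501, the members' median -0.29 to -0.20 and the share of genes over 500 kb called lower 9.43% to 43.9%, against 14, 1515, -0.23 and 40.6% with all arrays. No member was called higher under any of the 13 alternative fits (at an unadjusted p under 0.05 by limma with all arrays, none was either). With array weights 22 members were lower, 5425 rows were called and 61.8% of genes over 500 kb were lower. The replicate block, fitted although the numbers were not shown to pair the brains, gave 17 members lower and 2400 rows called. The members it added were Dpp6 (adjusted p = 0.017), Astn2 (0.020) and Nlgn1 (0.030), by limma. The limit of 1.5-fold left 0 members and 150 rows. A span limit of 200 kb gave 24.6% called lower, and a limit of 1000 kb gave 40.7%. The causes of these shifts were not tested, and some settings also bring fewer arrays or a stricter limit.

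The 14 called genes kept their sign in all 182 refits and lost their call in 46 of them. The 20 uncalled genes gained a call in 19 of 260 refits and turned sign in 7, none of which passed. Kcnip4 was at 0.039 with cyclic loess. With 1 array left out Gpc5 ranged from -0.084 to 0.038, above 0 without mutant replicate 3 or wild-type replicate 1. Exoc4 ranged from -0.080 to 0.028, above 0 without mutant replicate 1, mutant replicate 3 or wild-type replicate 2, and was at 0.0285 with array weights.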

Other observations

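Within the members, longer genes tended to have lower differences, with a Spearman correlation of -0.38 between genomic span and difference over the 34 genes. The genes share the same 6 arrays, so this is a description without a test. Of the 24 members over 1000 kb 12 were lower, and of 30 other genes over 1000 kb 10 were lower and 1, Dcc, was higher. Outside the members the median difference was -0.13 over 1000 kb and -0.20 over 500 kb, so it was not lower in the longer class. Mutant replicate 2 had an Xist value of 1.17 while its Y-linked genes Kdm5d, Uty and Eif2s3y were at 0.20, 0.029 and 0.19.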
